A study of Mus musculus with 10 samples.

Results

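The nuclear-encoded subunits of respiratory chain complexes II, III and IV and of ATP synthase (complex V) were compared between kidneys of old Rragc S74N/+ and Rragc +/+ mice. Members were the rows whose gene symbol was Sdha, Sdhb, Sdhc or Sdhd, began with Uqcr, was Cyc1, began with Cox4, Cox5, Cox6, Cox7 or Cox8, or began with Atp5. The rule found 44 of the 13299 rows of the expression table: 4 for complex II, 9 for complex III, 14 for complex IV and 17 for complex V. One of the 14, Cox7c-ps1, is annotated as a pseudogene of Cox7c, so 43 are subunit genes or their tissue isoforms. The symbols Cox4i2, Cox6a2, Cox8b and Cox8c were not analysed here. Atp5if1 is listed under its older symbol Atpif1, which the rule does not match, and is described with complex V as a gene outside the members.

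Electrons from succinate enter the chain at complex II, while those from NADH enter at complex I. Both pass through coenzyme Q to complex III, and cytochrome c carries them on to complex IV, where oxygen is reduced. Complexes III and IV pump protons across the inner mitochondrial membrane, and complex V uses the returning protons to make ATP. Complex II is built from nuclear genes only, whereas complexes III, IV and V each hold a few subunits made from mitochondrial DNA. The kidney tubule reabsorbs salt and solutes at a high cost in ATP, and its proximal tubule, thick ascending limb and distal convoluted tubule are rich in mitochondria.

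Rragc encodes RagC, a small GTPase that signals nutrient sufficiency to mTORC1. The Rragc S74N/+ mice carried the S74N substitution in 1 allele as a whole-body knock-in made with CRISPR, and the Rragc +/+ mice had 2 unedited alleles. Whole kidneys of mice aged 1.5 years were used, 5 of each genotype, with no treatment named in the labels. Total RNA (300 ng per library, quality score 6.2 to 7) was counted from the 3′ ends of polyadenylated transcripts.

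The deposited values are counts divided by a size factor of each library, called normalized counts below. In 8 libraries the whole reads could be recovered, and they summed to between 4488493 and 5797251 per library. Mitochondrially encoded transcripts took 33.79 to 38.04% of the normalized counts of a library. Rragc itself was 146 ± 42.7 normalized counts in Rragc +/+ and 124 ± 26.4 in Rragc S74N/+ (SD, n = 5 each), which checks no label, since 3′-end counts do not read the edited codon. Brown fat genes stood out in 2 kidneys. The 4 genes of a brown fat list of 5 that were in the table (Ucp1, Cidea, Adipoq and Plin1) summed to 1656 normalized counts in S74N/+ replicate 1 and 751 in +/+ replicate 3, against 1.02 to 143 in the other 8 kidneys. S74N/+ replicate 1 also had the lowest value of its group in 30 of the 44 members. Counts of calls and medians over gene lists are therefore also given without these 2 kidneys.

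All 44 members had a negative log2 fold change (Rragc S74N/+ minus Rragc +/+), where 51.3% of the 13236 genes tested did. With the libraries scaled to equal totals 42 of the 44 did, and Cox6b2 and Cox7a2l were above 0. The median of the 44 was -0.47, against -0.013 over all genes tested. With limma on log2(normalized count + 1) and Benjamini-Hochberg adjustment over all genes, 12 of the 44 (27.3%) were called lower at an adjusted p under 0.05, where 2.58% of all genes tested were. None was called higher (3.45% of all genes were), no member had a positive fold change at an unadjusted p under 0.05, and edgeR and DESeq2 on the 8 libraries with recovered reads called none higher either. At an unadjusted p under 0.05, 35 members were lower, where 12.8% of all genes were. The 2 groups did not overlap for 18 members (40.9%), where 4.01% of all genes had all 5 Rragc S74N/+ kidneys below all 5 Rragc +/+ kidneys. For any gene without overlap, an exact two-sided permutation test of 5 against 5 gives its smallest possible p, 0.00794, before any correction over the 44. That p follows from the lack of overlap and is no further evidence for the 18.

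By complex, 1 of 4 members of complex II, 3 of 9 of complex III, 6 of 14 of complex IV and 2 of 17 of complex V were called lower. The median log2 fold changes were -0.36, -0.30, -0.59 and -0.47. Differences between complexes, or between members, were not tested. Summed over its members, complex II gave 3080.1 ± 349 normalized counts in Rragc +/+ and 2382 ± 338 in Rragc S74N/+ (SD, n = 5), that is 77.4%. The corresponding shares were 81.98% for complex III, 71.2% for complex IV and 74.3% for complex V. In each complex, the 5 Rragc S74N/+ sums lay below the 5 Rragc +/+ sums. For complex IV, for example, the Rragc S74N/+ sums ran from 15950.0 to 22319 and the Rragc +/+ sums from 24492 to 31511. All members together made up 2.47% ± 0.222 of the nuclear-encoded normalized counts in Rragc +/+ and 1.90% ± 0.219 in Rragc S74N/+ (SD, n = 5).

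**Figure D1:**
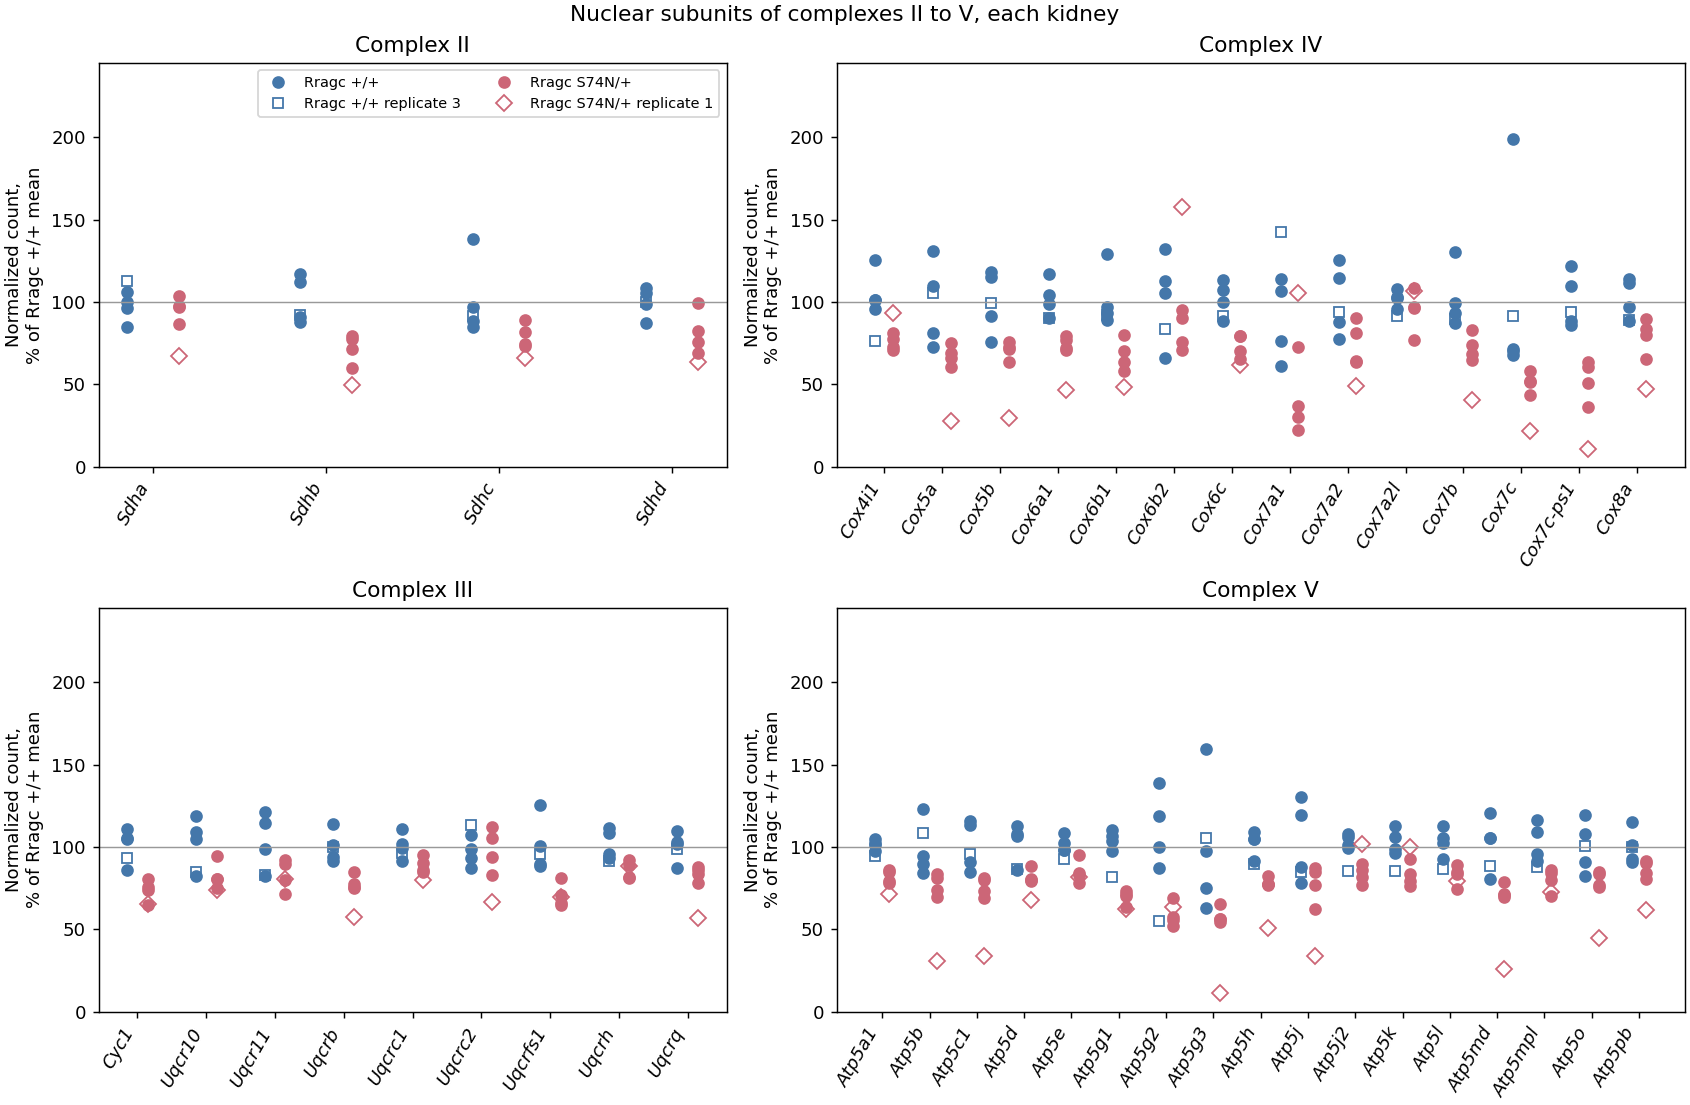
Normalized counts of the 44 members in each kidney, as a percent of the mean of the 5 Rragc +/+ kidneys (y axis, 4 panels by complex); blue marks Rragc +/+, red Rragc S74N/+, and open marks are the 2 kidneys with brown fat genes. Most red points lie below the line at 100%, and the open red diamond of S74N/+ replicate 1 is the lowest of its group in 30 of the 44 members.

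Leaving out S74N/+ replicate 1 gave smaller differences and more calls: the median of the 44 members was -0.34, and 19 were called lower (3.20% of all genes). Leaving out +/+ replicate 3 as well gave a median of -0.37 and 21 calls (3.01% of all genes). All 12 members called in the full comparison were called in both. Without both kidneys, 1 member of complex II, 3 of complex III, 10 of complex IV and 7 of complex V were called lower, with medians of -0.32, -0.32, -0.48 and -0.33. At an unadjusted p under 0.05, 37 members were then lower (10.9% of all genes), and the groups, now 4 against 4, did not overlap for 25 members (6.54% of all genes). Without S74N/+ replicate 1 alone, the complex IV median was -0.45 and the complex V median -0.32. The count of 12 depended on single kidneys in the other direction too. It was 3 without +/+ replicate 1 (1.05% of all genes), 2 without +/+ replicate 2 (0.944%), 7 without +/+ replicate 3 (1.80%) and 3 without +/+ replicate 4 (1.11%). It was 7 without S74N/+ replicate 4 (1.78%) and 4 without S74N/+ replicate 5 (1.28%). Atp5g1 and Cox6b1 were called in each of the 10 fits that left out 1 kidney. Sdhb was called in 7 of them, Cyc1, Cox6a1 and Cox6c in 6, Uqcrfs1 in 5, Uqcrb and Cox7b in 4, Cox7c and Cox7c-ps1 in 3 and Atp5h in 1. On the recovered reads of 8 kidneys, edgeR called 11 members lower (2.55% of all genes), 8 of them among the 12, and DESeq2 called 24 (4.84% of all genes), which included all 12. A variance prior with no trend on the mean level left only Atp5g1 called (1.13% of all genes).

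**Figure D2:**
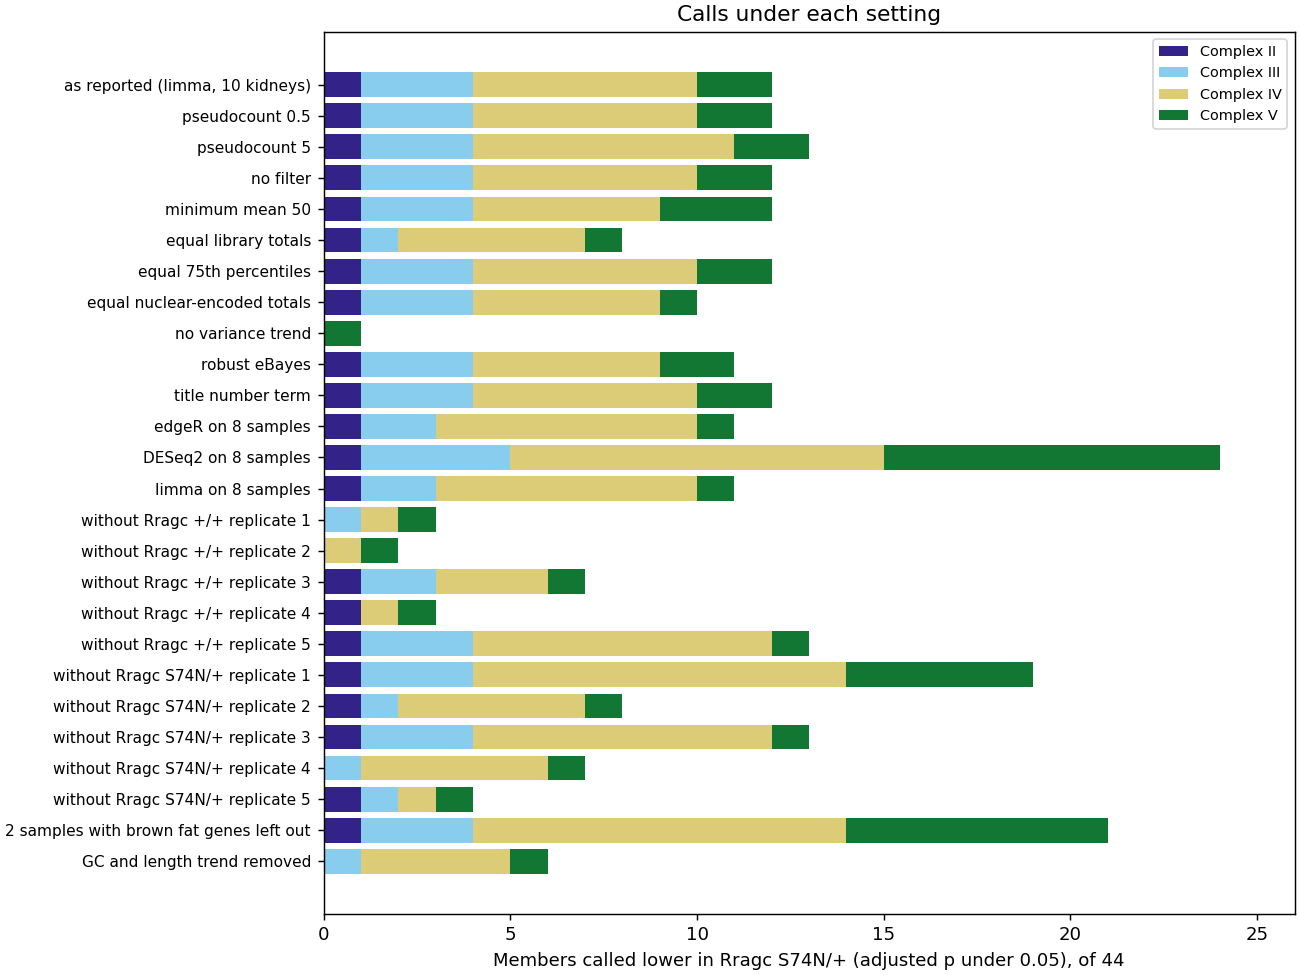
Number of members called lower in Rragc S74N/+ (x axis, adjusted p under 0.05) under each setting shown (y axis), with bars divided by complex; 44 members were tested except with a minimum mean of 50 (42) and with the GC and length trend removed (41). Among these settings the count ran from 1 with no variance trend to 24 with DESeq2, around the reported 12.

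Complex II passes electrons from its flavoprotein Sdha through the iron-sulphur subunit Sdhb to coenzyme Q, and Sdhc and Sdhd anchor it in the membrane. Sdhb was 1624, 1698, 1335, 1271 and 1316 normalized counts in Rragc +/+ replicates 1 to 5 and 722, 1148, 1123, 868 and 1037 in Rragc S74N/+ replicates 1 to 5. The groups did not overlap, and the Rragc S74N/+ mean was 67.6% of the Rragc +/+ mean, with a log2 fold change of -0.58 ± 0.14 (SE) and a limma adjusted p of 0.024. Its partner Sdha lay nearer to 0, with a log2 fold change of -0.16 ± 0.13 (SE, adjusted p = 0.463), and S74N/+ replicate 4 (1145) lay above 3 of the 5 Rragc +/+ kidneys. Without S74N/+ replicate 1 the Sdha difference was -0.054. The anchors Sdhc (-0.36) and Sdhd (-0.37) did not pass the threshold, with adjusted p-values of 0.123 and 0.196. Sdhd was counted at 40.1 to 68.7 normalized counts, so its values carry more counting error than those of Sdha and Sdhb.

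In complex III, cytochrome b is mitochondrially encoded, cytochrome c1 (Cyc1) and the Rieske iron-sulphur protein (Uqcrfs1) complete the electron path, Uqcrc1 and Uqcrc2 are its core proteins, and the others are small accessory subunits. Both electron-carrying members were called lower. Cyc1 was 1046, 1103, 926, 1041 and 855 in Rragc +/+ and 650.0, 733, 799, 646 and 750.0 in Rragc S74N/+, with a log2 fold change of -0.47 ± 0.11 (SE) and a limma adjusted p of 0.0199. Uqcrfs1 was 313, 443, 339, 356 and 317 in Rragc +/+ and 246, 228.7, 288, 232 and 251 in Rragc S74N/+, with a log2 fold change of -0.50 ± 0.12 (SE) and a limma adjusted p of 0.029. For both genes every Rragc S74N/+ kidney was below every Rragc +/+ kidney, at 71.97% and 70.4% of the Rragc +/+ mean, and for Cyc1 S74N/+ replicates 1 and 4 were the lowest.

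The core proteins lay nearer to 0, and the log2 fold change was -0.20 ± 0.10 for Uqcrc1 and -0.14 ± 0.14 for Uqcrc2 (SE), with adjusted p-values of 0.216 and 0.575. For Uqcrc2 the groups overlapped widely, at 442 to 742 against 579.5 to 754. Among the small subunits, Uqcrb, which lies against cytochrome b, was called lower. Its values were 1147, 1288, 1133, 1033 and 1065 in Rragc +/+ and 654, 848, 875, 958 and 859 in Rragc S74N/+, with a log2 fold change of -0.44 ± 0.12 (SE) and a limma adjusted p of 0.0354. Uqcrh, the hinge protein at cytochrome c1, was the most counted member of complex III, at 4847, 4063, 3979.9, 4732 and 4158 in Rragc +/+ and 3861, 4012, 3864, 3555 and 3528 in Rragc S74N/+. Its groups overlapped only through S74N/+ replicate 2, and at -0.21 ± 0.10 on the log2 scale (SE) it was not called (adjusted p = 0.217). Uqcrq (-0.37), Uqcr10 (-0.30) and Uqcr11 (-0.26) did not pass either, with adjusted p-values of 0.0914, 0.139 and 0.211.

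**Figure D3:**
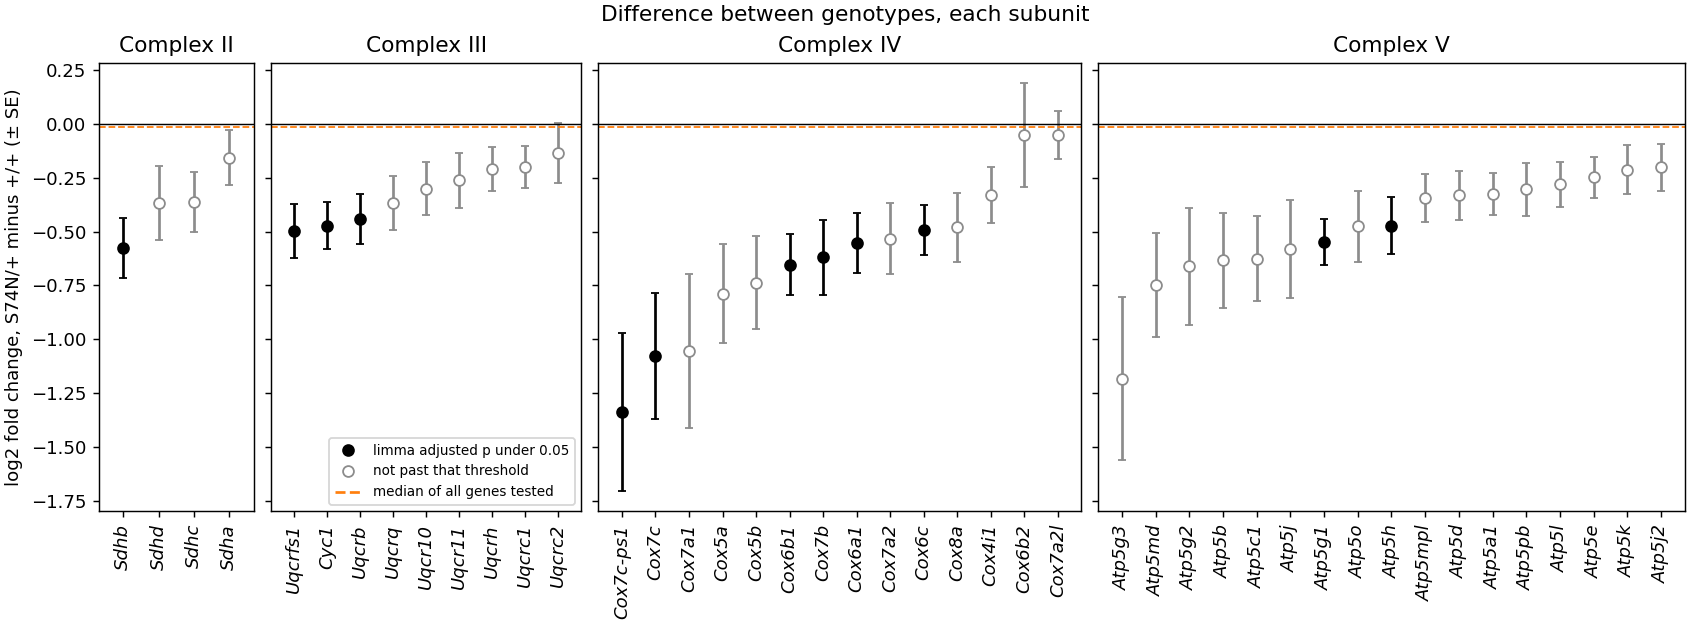
Log2 fold change of each member (y axis, Rragc S74N/+ minus Rragc +/+, bars are the SE from limma, n = 5 per genotype), ordered within each complex; filled points had an adjusted p under 0.05. All 44 points lie below 0, with Cox7a2l and Cox6b2 nearest to it at -0.051 (both above 0 with equal library totals) and Cox7c-ps1 farthest at -1.34.

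Complex IV has a catalytic core of 3 mitochondrially encoded subunits, around which the nuclear subunits sit. Several of the nuclear subunits come in tissue isoforms. Cox6b1, which faces the intermembrane space near the cytochrome c docking site, was 1226, 1778, 1265, 1286 and 1333 in Rragc +/+ and 663, 872, 1099, 963 and 801 in Rragc S74N/+. The mean fell to 63.8%, with a log2 fold change of -0.65 ± 0.14 (SE) and a limma adjusted p of 0.0145, and no values overlapped. Cox6c was the most counted member of complex IV, at 6509, 6881, 5539, 6085 and 5368 in Rragc +/+ and 3749, 4806, 4822, 4264 and 3957 in Rragc S74N/+. It showed a log2 fold change of -0.49 ± 0.12 (SE) and a limma adjusted p of 0.0221, and its lowest Rragc +/+ kidney stood above its highest Rragc S74N/+ kidney. Cox6a1, the broadly expressed isoform of subunit VIa, was 3010.5, 3380.0, 2602, 2854 and 2616 in Rragc +/+ and 1344, 2086, 2290.5, 2218 and 2044 in Rragc S74N/+. It showed a log2 fold change of -0.55 ± 0.14 (SE) and a limma adjusted p of 0.0316, and S74N/+ replicate 1 lay well below the other 4.

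Cox7b was 488, 680.4, 468, 517 and 455 in Rragc +/+ and 212, 356, 385, 434 and 337 in Rragc S74N/+, with a log2 fold change of -0.62 ± 0.17 (SE) and a limma adjusted p of 0.0441. The Rragc S74N/+ mean was 66.1% of the Rragc +/+ mean, with no overlap. Cox7c was 288, 800.0, 368, 273 and 284 in Rragc +/+ and 86.7, 206, 232.9, 176.2 and 209 in Rragc S74N/+. Here +/+ replicate 2 stood far above its group and S74N/+ replicate 1 far below its own, and the log2 fold change was -1.08 ± 0.29 (SE, limma adjusted p = 0.0396). Cox7c-ps1, its pseudogene, was 46.99, 58.3, 49.9, 64.6 and 45.8 in Rragc +/+ and 5.60, 19.4, 26.99, 33.6 and 32.1 in Rragc S74N/+, with a log2 fold change of -1.34 ± 0.37 (SE) and a limma adjusted p of 0.0418. The sequences of gene and pseudogene are alike and reads may have been assigned to either, so the split between them is uncertain and these 2 calls are not independent. The same caution holds for other members with near-identical copies in the genome, since the alignment allowed reads with several matches and the way these were counted is not given in the sources used here.

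Of the members of complex IV that were not called, Cox5b (-0.74 ± 0.22, SE) had no overlap between the groups and an adjusted p of 0.0554, and Cox5a (-0.79 ± 0.23, SE) an adjusted p of 0.053. Both are broadly expressed subunits, and in both S74N/+ replicate 1 was far below its group, at 499.8 against 1078 to 1289.7 for Cox5b. Without that kidney their log2 fold changes were -0.48 and -0.54, with adjusted p-values of 0.0193 and 0.0247. Cox7a2, the common isoform of subunit VIIa, had a log2 fold change of -0.53 (adjusted p = 0.0666). Cox8a gave -0.48 and Cox4i1 gave -0.33, with adjusted p-values of 0.0802 and 0.132. Cox7a2l, known from supercomplexes of complexes III and IV, showed little difference, at -0.051 ± 0.11 (SE, adjusted p = 0.82). That difference turned to 0.028 when the libraries were scaled to equal totals.

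Cox7a1 and Cox6b2 are tissue isoforms. Cox7a1, the form of subunit VIIa known from striated muscle and brown fat, was 78.3, 56.2, 105, 83.8 and 44.8 in Rragc +/+ and 77.4, 53.3, 26.99, 16.3 and 22.3 in Rragc S74N/+. In each genotype the highest value was in a kidney with brown fat genes, 105 in +/+ replicate 3 and 77.4 in S74N/+ replicate 1. The next value in Rragc S74N/+ was in replicate 2 (53.3), which was also next in the brown fat sum (143). In Rragc +/+ the next was in replicate 4 (83.8), whose brown fat sum was the lowest of its group (6.11), while replicate 1 (78.3) had a sum of 117. Over all 10 kidneys Cox7a1 had a log2 fold change of -1.05 ± 0.36 (SE, adjusted p = 0.0857), which did not pass. Without the 2 kidneys it was -1.21 ± 0.30 (SE, adjusted p = 0.0195), with 65.8 ± 18.4 in Rragc +/+ and 29.7 ± 16.3 in Rragc S74N/+ (SD, n = 4 each). Without S74N/+ replicate 1 alone the adjusted p was 0.00833. Cox6b2, the form of subunit VIb known from testis, was 58.2, 36.4, 46.1, 62.00 and 72.6 in Rragc +/+ and 86.7, 52.3, 38.99, 41.8 and 49.5 in Rragc S74N/+. S74N/+ replicate 1 was here the highest of all 10, and the fold change of -0.051 ± 0.24 (SE) was within its error and turned to 0.026 with equal library totals.

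**Figure D4:**
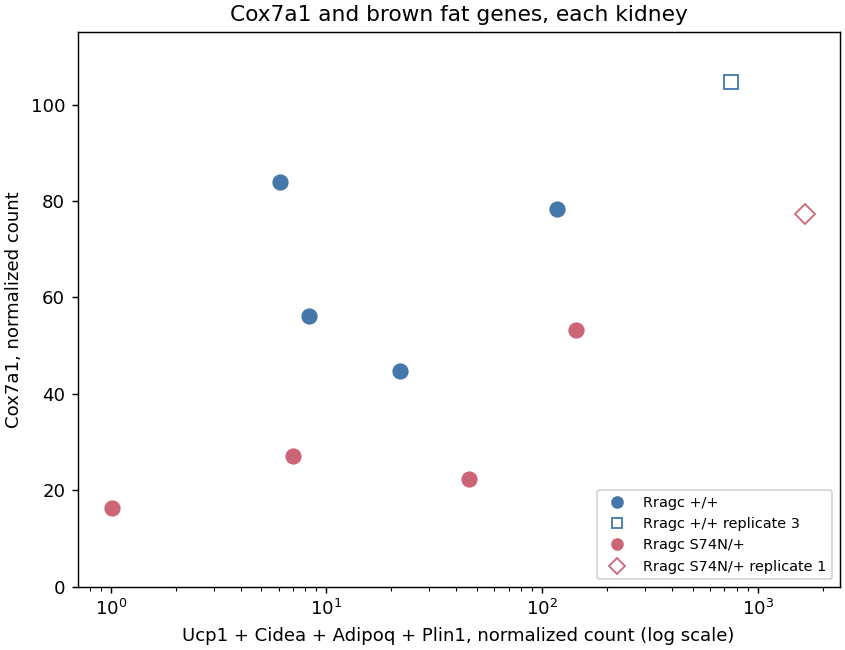
Cox7a1 (y axis, normalized count) against the summed normalized counts of Ucp1, Cidea, Adipoq and Plin1 (x axis, log scale), 1 point per kidney, blue for Rragc +/+ and red for Rragc S74N/+. The 2 open marks are the kidneys with the highest brown fat sums, 751 and 1656, and they hold the top Cox7a1 value of each group.

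Complex V has an F1 head that makes ATP (Atp5a1, Atp5b, Atp5c1, Atp5d, Atp5e), a ring of c subunits that turns as protons pass (Atp5g1, Atp5g2 and Atp5g3 encode the same mature protein), a peripheral stalk (Atp5pb, Atp5h, Atp5j, Atp5o) and small membrane subunits. Atp5g1 had the lowest adjusted p of the 44 members. It was 1984, 2109, 1564, 2037 and 1861 in Rragc +/+ and 1186, 1396, 1369.7, 1346 and 1212 in Rragc S74N/+, with a log2 fold change of -0.55 ± 0.11 (SE) and a limma adjusted p of 0.00896. The 2 groups were apart, and S74N/+ replicate 1 lay with the rest of its group. The stalk subunit Atp5h was 2823, 2714, 2325, 2706 and 2367 in Rragc +/+ and 1310.2, 2001, 1996, 2126 and 1999 in Rragc S74N/+, with a log2 fold change of -0.47 ± 0.13 (SE) and a limma adjusted p of 0.0452. Of its Rragc S74N/+ values, replicates 2 to 5 were close together and replicate 1 was well below them, and Atp5h was called in only 1 of the 10 fits that left out a kidney, the one without S74N/+ replicate 1.

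Atp5g3, another c-subunit gene, had the largest fold change of complex V without being called. It was 2162, 3537, 2338, 1664 and 1399 in Rragc +/+ and 254, 1244, 1457, 1201 and 1247 in Rragc S74N/+, with a log2 fold change of -1.18 ± 0.38 (SE) and a limma adjusted p of 0.0734. S74N/+ replicate 1 held 19.7% of the mean of the other 4 kidneys of its genotype. Without it the log2 fold change was -0.72 (adjusted p = 0.0192). The groups overlapped, since +/+ replicate 5 (1399) was below S74N/+ replicate 3 (1457). Atp5g2, the remaining c-subunit gene, was counted at only 14.5 to 38.8 normalized counts and gave -0.66 ± 0.27 (SE, adjusted p = 0.144).

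In the reported limma fit no gene of the F1 head was called, but other fits called some of them. Atp5a1, the α subunit and the most counted member of complex V, was 3598, 3463, 3230.2, 3505 and 3331 in Rragc +/+ and 2453, 2722, 2902, 2934 and 2666 in Rragc S74N/+. Its values did not overlap, but the log2 fold change of -0.33 ± 0.10 (SE) had an adjusted p of 0.0567. The catalytic β subunit Atp5b (-0.63 ± 0.22, SE) and the γ subunit Atp5c1 (-0.63 ± 0.20, SE) did not overlap either, with adjusted p-values of 0.0941 and 0.0716. In both, S74N/+ replicate 1 was far below its group, at 939 for Atp5b and 626 for Atp5c1. The δ subunit Atp5d (-0.33) and the ε subunit Atp5e (-0.25) did not pass in that fit. On the recovered reads DESeq2 called Atp5a1, Atp5b, Atp5c1 and Atp5d lower (adjusted p = 0.023, 0.0484, 0.0277 and 0.0484), but not Atp5e. With edgeR on the same reads none of the head was called. Without both kidneys with brown fat genes limma called Atp5a1 (adjusted p = 0.0479) and Atp5c1 (0.037). Without S74N/+ replicate 1 alone it called only Atp5c1 of the head (adjusted p = 0.0339). Of the other stalk subunits, Atp5o had -0.48, Atp5j -0.58 and Atp5pb -0.30 as log2 fold changes, and their adjusted p-values ran from 0.0895 to 0.138.

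The small membrane subunits did not move by one amount. Atp5md, which links ATP synthase dimers, had a log2 fold change of -0.75 ± 0.24 (SE, adjusted p = 0.0757) with no overlap, and S74N/+ replicate 1 (209) was far below the other 4 (567 to 639). Atp5mpl also did not overlap, at -0.34 ± 0.11 (SE, adjusted p = 0.0748). Atp5l, Atp5k and Atp5j2 gave -0.28, -0.21 and -0.20, and in Atp5k and Atp5j2 S74N/+ replicate 1 was the highest kidney of its group. That kidney was thus low in most members and high in a few. Its log2 ratio to the mean of the other 4 had an SD of 0.702 over the 44 members, against 0.176 to 0.317 for the other 9 kidneys. Atpif1, the inhibitor that binds the F1 head and is no member under the rule, was 2464 ± 104 in Rragc +/+ and 2519 ± 188 in Rragc S74N/+ (SD, n = 5), a log2 fold change of 0.029 ± 0.10 (SE, adjusted p = 0.882).

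The mitochondrially encoded partners of these complexes were read from the same libraries. Of the 6, 1 was called lower (2.58% of all genes) and the median was -0.64, while edgeR called 2 (2.55%) and DESeq2 3 (4.84%). Leaving out S74N/+ replicate 1 gave 4 calls (3.20% of all genes). Leaving out both kidneys with brown fat genes gave 3 (3.01%), and the median was -0.46 in each. The gene called in the full comparison was mt-Atp8 of complex V, at 11878, 14365, 11497, 10232 and 9666 in Rragc +/+ and 4173, 8175, 9232, 7060.0 and 7069 in Rragc S74N/+, with a log2 fold change of -0.73 ± 0.18 (SE) and a limma adjusted p of 0.0305. It was called in 4 of the 10 fits without 1 kidney. Cytochrome b (mt-Cytb, complex III) did not overlap between groups, with a log2 fold change of -0.75 ± 0.24 (SE) and an adjusted p of 0.0703. The complex IV core genes mt-Co1 (-0.56 ± 0.17, SE) and mt-Co2 (-1.08 ± 0.42, SE) did not overlap and were not called (adjusted p = 0.0609 and 0.127), and mt-Co2 in S74N/+ replicate 1 was 151 against 767 to 1174 in the other 4. The third core gene, mt-Co3, showed 0.026 ± 0.17 (SE), and mt-Atp6, which overlaps mt-Atp8 on the same transcript, -0.21 ± 0.15 (SE). Reads of mt-Atp8 and mt-Atp6 may therefore not be told apart fully.

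Nuclear complex I subunits, chosen by symbol (Ndufa, Ndufb, Ndufc, Ndufs and Ndufv followed by a digit), are the nearest comparison. Of 38, 8 were called lower (2.58% of all genes were) and none higher (3.45% of all genes). A negative fold change was found in 35 (51.3% of all genes), and the median was -0.37. Without S74N/+ replicate 1 the median was -0.29, with 11 called lower (3.20% of all genes). Without both kidneys with brown fat genes it was -0.35, with 11 called lower (3.01% of all genes). At an unadjusted p under 0.05, 24 were lower (12.8% of all genes) and none was higher, and edgeR and DESeq2 called none higher. One of the 8, Ndufa4, is now known as a subunit of complex IV. It was 196, 389, 246, 191 and 179 in Rragc +/+ and 54.1, 120.2, 129, 165 and 143 in Rragc S74N/+, with a log2 fold change of -0.997 ± 0.27 (SE) and a limma adjusted p of 0.0385. Others among them were Ndufa8 (-1.17), Ndufc2 (-0.89), Ndufb5 (-0.63), Ndufb2 (-0.59), Ndufb10 (-0.47) and Ndufb9 (-0.38, all log2 fold changes). The difference between complex I and complexes II to V was not tested. Of 7 mitochondrially encoded complex I subunits, none was called by limma or edgeR. At an unadjusted p under 0.05, 2 were lower (12.8% of all genes), and DESeq2 called 3 lower (4.84% of all genes). Without both kidneys with brown fat genes 1 was called lower (3.01% of all genes).

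**Figure D5:**
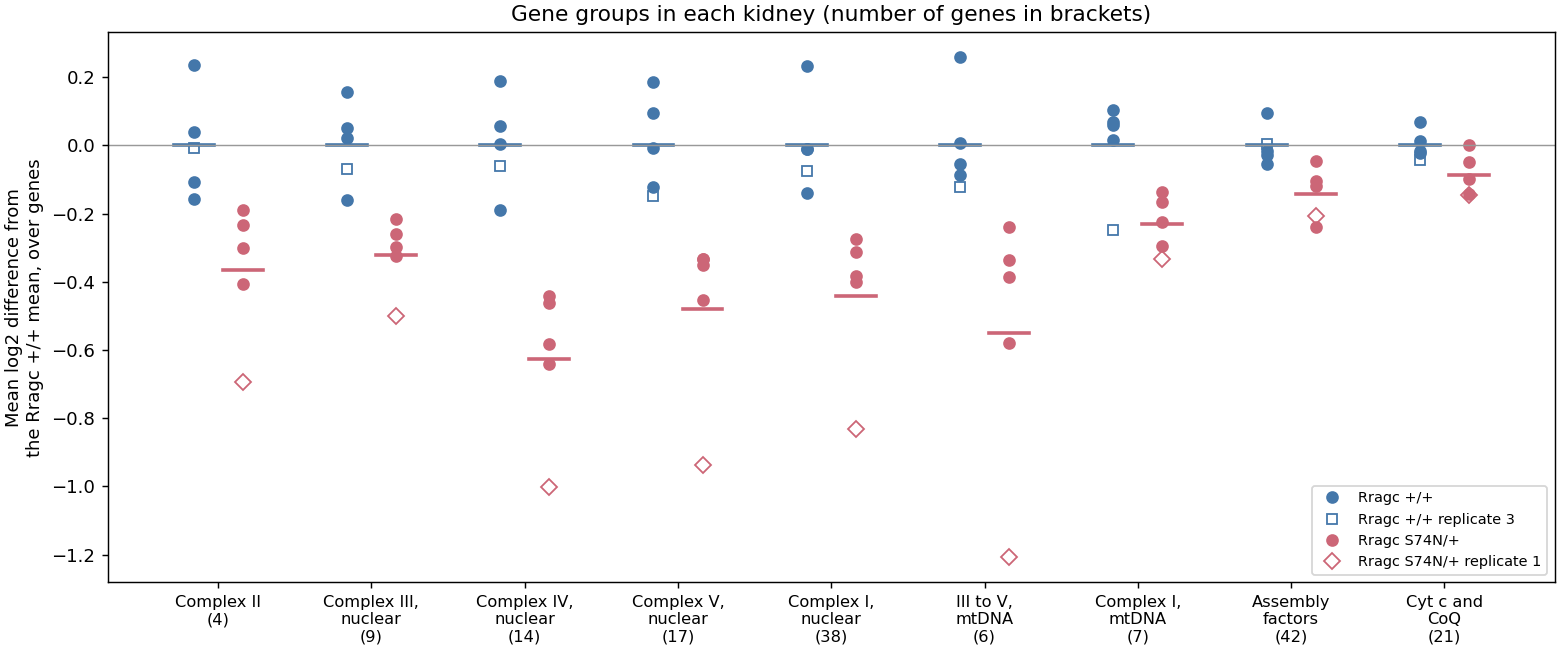
Mean log2 difference from the Rragc +/+ mean over the genes of each group (y axis), 1 point per kidney, with a bar at the mean of each genotype (n = 5). In complexes II to V the 5 Rragc S74N/+ kidneys lie below the 5 Rragc +/+ kidneys, and S74N/+ replicate 1 is the lowest, at -0.94 for complex V.

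Genes that serve the complexes without being subunits had medians nearer to 0. Over all genes tested, limma called 2.58% lower and 3.45% higher, and at an unadjusted p under 0.05 12.8% were lower and 12.6% higher. Of 44 assembly factors, 42 were tested, with a median of -0.16. Of these, 1 (2.38%) was called lower and 1 higher, near the shares over all genes. The counts were the same without both kidneys with brown fat genes (3.01% of all genes lower, 3.64% higher). Higd2a, a factor for complex IV and supercomplexes, fell (-0.50 ± 0.13, SE, adjusted p = 0.034), while Taco1, which activates translation of mt-Co1, rose from 25.7 ± 2.19 to 49.9 ± 8.97 normalized counts (SD, n = 5, log2 fold change 0.92 ± 0.20 (SE), adjusted p = 0.014). Cytochrome c (Cycs) was 743 ± 83.2 in Rragc +/+ and 715 ± 51.6 in Rragc S74N/+ (SD, n = 5), a log2 fold change of -0.052 ± 0.11 (SE) that was 0.027 with equal library totals. A list of 21 electron carrier genes held those of cytochrome c, coenzyme Q synthesis and enzymes that feed electrons to coenzyme Q. None of the 21 passed with limma, and 5 were lower and 2 higher at an unadjusted p under 0.05. Of these 21, edgeR called none and DESeq2 called 1 lower (4.84% of all genes). Without both kidneys with brown fat genes 1 of the 21 was called higher (3.64% of all genes). Of 23 other mitochondrial genes, the import pore Tomm40 (-0.63, adjusted p = 0.0453) and the ADP/ATP carrier Slc25a4 (-0.57, adjusted p = 0.0168) were called lower, and the median was -0.25. Without both kidneys with brown fat genes 4 were called lower (3.01% of all genes). Without S74N/+ replicate 1 alone 4 were also called lower (3.20% of all genes), and the median was -0.19 in each fit. DESeq2 called 5 lower (4.84% of all genes) and 1 higher (5.76%). Among the kidneys with title numbers of 200 and over the median was -0.072.

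Among 22 regulators of respiratory chain genes the median was -0.047 (0.070 with edgeR and 0.060 with DESeq2), and 2 were called lower (9.09%, against 2.58% of all genes). Ppargc1a, the coactivator PGC-1α, was 320.0, 293, 336, 305 and 264 in Rragc +/+ and 151, 190.0, 238, 238 and 255 in Rragc S74N/+, with a log2 fold change of -0.52 ± 0.15 (SE) and a limma adjusted p of 0.0472. All its Rragc S74N/+ values were below all its Rragc +/+ values, and it was called in 2 of the 10 fits without 1 kidney. Without both kidneys with brown fat genes it was not called, which left 1 of the 22 (3.01% of all genes were called lower). The nuclear receptor Esrrb was 45.9, 53.1, 50.9, 69.9 and 36.8 in Rragc +/+ and 13.99, 23.3, 42.99, 24.4 and 14.6 in Rragc S74N/+, with a log2 fold change of -1.16 ± 0.29 (SE) and a limma adjusted p of 0.0285, and S74N/+ replicate 3 overlapped the Rragc +/+ range. It was called in 5 of the 10 fits. The related receptors Esrra (-0.31) and Esrrg (0.15) did not pass. Nor did the factors Nrf1 (-0.46), Gabpa (-0.071) and the mitochondrial transcription factor Tfam (0.15), with adjusted p-values between 0.227 and 0.867.

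Promoters of members were searched for the known binding letters of 4 regulators, since all members had negative fold changes in the reported fit. RefSeq promoters (build GRCm38.p6, 250 bases before to 50 after the start) were found for 34 of the 44. The letters were GCGCANGCG for NRF1, CCGGAAGT for the ETS factor GABPA, AAGATGGCG for YY1 and TCAAGGTCA for the oestrogen-related receptors, on both strands. No match to one overlapped a match to another. A member counted as matched if any of its promoters matched. The comparison share was instead taken per promoter, over all promoters and not only those of the genes tested, so the 2 shares differ in kind. NRF1 letters were in the promoters of 12 of the 34 members (35.3%), and in 6.25% of 32851 promoters of the same length. ETS letters were in 4 members (11.8%, against 3.89%), YY1 letters in 2 (5.88%, against 1.40%) and the receptor letters in 2 (5.88%, against 0.423%). The median log2 fold change was -0.42 for the 12 members with NRF1 letters and -0.54 for the 22 without. It was -0.37 with and -0.54 without ETS letters, and -0.39 with and -0.49 without YY1 letters. The receptor letters went the other way, at -0.77 for the 2 members with them and -0.49 without. These splits were not tested. Of the 12 with NRF1 letters, Cox6a1 and Atp5h were called lower (27.3% of the 44 members and 2.58% of all genes were). They had 2 and 1 separate matches, and Sdha and Uqcrc1, with 3 and 2, were not called. These promoters are given 5′ to 3′ in capitals where letters matched: Cox6a1 (chr5:115348909-115349208 on the minus strand) and Atp5h (chr11:115419870-115420169 on the minus strand) as called members, Atp5g3 (chr2:73911277-73911576 on the minus strand) as the largest difference of complex V, and Sdha (chr13:74350191-74350490 on the minus strand) and Uqcrc1 (chr9:108936398-108936697 on the plus strand) as small ones. Capitals are NRF1 letters except for the later match in Atp5h, which is ETS, and the earlier match in Atp5g3, which is the receptor motif.
Cox6a1: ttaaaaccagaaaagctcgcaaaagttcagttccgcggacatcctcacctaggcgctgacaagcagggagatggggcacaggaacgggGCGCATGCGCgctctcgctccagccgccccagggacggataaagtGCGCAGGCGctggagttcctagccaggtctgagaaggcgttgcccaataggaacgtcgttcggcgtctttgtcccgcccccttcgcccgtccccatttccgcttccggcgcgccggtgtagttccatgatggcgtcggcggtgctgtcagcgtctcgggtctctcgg
Atp5h: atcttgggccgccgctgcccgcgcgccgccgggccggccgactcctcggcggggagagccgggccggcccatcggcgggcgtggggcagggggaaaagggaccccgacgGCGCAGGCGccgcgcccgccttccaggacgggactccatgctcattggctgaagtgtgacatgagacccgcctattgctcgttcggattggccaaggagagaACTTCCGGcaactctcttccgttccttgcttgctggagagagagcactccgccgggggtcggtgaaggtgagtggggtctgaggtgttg
Atp5g3: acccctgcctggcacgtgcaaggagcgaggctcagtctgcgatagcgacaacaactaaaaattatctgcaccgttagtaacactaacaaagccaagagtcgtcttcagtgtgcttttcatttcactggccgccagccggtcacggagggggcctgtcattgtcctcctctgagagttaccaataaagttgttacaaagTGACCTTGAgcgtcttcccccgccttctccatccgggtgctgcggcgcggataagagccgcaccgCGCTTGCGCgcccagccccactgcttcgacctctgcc
Sdha: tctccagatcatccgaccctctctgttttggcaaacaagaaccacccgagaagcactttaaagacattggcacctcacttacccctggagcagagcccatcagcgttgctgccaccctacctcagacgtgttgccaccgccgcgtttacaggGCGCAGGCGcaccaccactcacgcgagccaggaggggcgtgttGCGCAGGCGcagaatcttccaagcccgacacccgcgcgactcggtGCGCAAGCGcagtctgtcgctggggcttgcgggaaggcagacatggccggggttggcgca
Uqcrc1: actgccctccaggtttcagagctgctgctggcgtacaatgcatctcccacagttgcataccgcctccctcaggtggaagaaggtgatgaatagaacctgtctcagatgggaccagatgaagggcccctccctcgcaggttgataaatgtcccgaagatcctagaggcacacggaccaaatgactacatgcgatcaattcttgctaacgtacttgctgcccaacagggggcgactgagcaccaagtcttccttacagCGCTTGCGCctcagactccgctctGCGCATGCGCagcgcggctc

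Markers of some kidney cell types differed between the genotypes as the members did, and those of others did not. Over all genes tested, limma called 2.58% lower and 3.45% higher. Of 9 distal convoluted tubule markers, 7 were called lower, with a median log2 fold change of -1.21. Their summed level was 6264 to 7658 normalized counts in Rragc +/+ and 2375 to 3743 in Rragc S74N/+. Of 8 thick ascending limb markers, 4 were called lower, and their sum was 12133 to 16329.6 against 5643 to 12329. Proximal tubule markers, of which 2 of 15 were called lower and 1 higher, summed to 51821 to 65529.9 against 51569.9 to 67054. Macrophage markers (2 of 8 called higher) summed to 589 to 766 against 894 to 1212, podocyte markers (2 of 6 higher) to 895 to 1078.5 against 1190.2 to 1408, and fibroblast markers (3 of 7 higher) to 809.5 to 1415 against 1314 to 2202. Collecting duct principal cell markers (0 of 7 called by limma, edgeR or DESeq2, and none at an unadjusted p under 0.05 with limma) summed to 1038 to 3372 against 1112 to 2774. Endothelial markers (1 of 7 lower) summed to 2016 to 2248 against 1932 to 2369, and intercalated cell markers (2 of 7 lower, 1 higher) to 661 to 840.2 against 643 to 741. T cell markers (1 of 5 tested higher) summed to 24.9 to 59.3 against 78.4 to 131. B and plasma cell markers (0 of 5 tested called) summed to 859 to 3070 against 1602 to 6873. The 2 neutrophil markers tested (1 higher) summed to 11.4 to 26.8 against 32.0 to 71.3. Without both kidneys with brown fat genes, 3.01% of all genes were called lower and 3.64% higher. Lower were 7 distal convoluted tubule, 4 thick ascending limb, 2 proximal tubule, 1 endothelial and 1 intercalated cell marker. Higher were 3 macrophage, 4 fibroblast, 1 podocyte, 1 principal cell, 1 T cell, 2 B and plasma cell, 1 proximal tubule and 1 intercalated cell marker. The part of these shifts in the lower subunit counts was not tested, and in whole kidneys fewer cells of a type cannot be told apart from less RNA per cell.

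Fold change also went with transcript length. The members are short, with a median annotated transcript of 765 bases (41 with a value) against 3088 over all genes tested. Among all 890 genes under 1000 bases the median log2 fold change was -0.18 and 4.38% were called lower, and among the 4394 genes of 4000 bases and over the median was 0.09. The 25 members under 1000 bases had a median of -0.48, with 6 called. After a trend on GC content and length was removed from each library, the median of 41 members was -0.28 and 6 were called lower (1.78% of all genes), all among the 12. Sdhb, Cyc1, Uqcrfs1, Cox6a1 and Atp5h were then not called, and Cox7c-ps1 had no transcript value. At an unadjusted p under 0.05, 20 of the 41 were lower, against 35 of 44 in the reported fit (12.8% of all genes). In complex V these counts were 5 of 15 against 15 of 17. The share of all genes at that threshold was not taken with the trend removed, so these drops have no background to be read against. Numbers in the sample titles fall into 2 ranges, whose meaning the labels do not give. Within the titles under 200 (3 kidneys of each genotype) the median of the members was -0.51. At an adjusted p under 0.05 limma called 0 of them lower there, and 0.257% of all genes. At an unadjusted p under 0.05, 28 members were lower, a count with no share over all genes to set beside it. Within the titles of 200 and over (2 of each) the median of the members was -0.32, with 8 called (2.12% of all genes). Nothing in the labels says more of the mice than their genotype and age, and p-values measure the spread between these kidneys.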

How the data were processed

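Whole-kidney RNA of 5 Rragc S74N/+ and 5 Rragc +/+ mice was made into 3′-end libraries (QuantSeq FWD kit) by the authors. Per the submitters' processing notes, reads were checked with FastQC 0.11.7, aligned to GRCm39 with TopHat2 2.0.10, Bowtie 1.0.0 and SAMtools 0.1.19, counted with HTSeq 0.6.1 and analysed with DESeq2. The deposited values are a normalized signal, gene counts that the authors divided by size factors, with 13299 genes. They are not raw counts, so a count test such as the study's DESeq2 was not the main one, and limma 3.58.1 (R 4.3.3) was run with a mean-variance trend on log2(value + 1), genotype being the only term. The 13236 genes with at least 5 normalized counts in 5 samples were tested (63 removed), which included all 44 members. A fold change on this scale understates that of low genes. Whole reads were recovered in 8 libraries, where 100% of values came out within 0.02 of a whole read. In +/+ replicate 5 and S74N/+ replicate 3 they were not. On these reads edgeR 4.0.16 called 851 genes and DESeq2 1.42.0 called 1402. No 2 of the 8 libraries agreed within sampling noise (smallest chi-square per degree of freedom 4.29 over 28 pairs). Per-sample values were given for members called, the most counted member and that with the largest fold change in each complex, tissue isoforms and, from lists of related genes, those called and named partners. One called gene of these lists is not reported here by name. Members and lists were chosen with earlier results of these data known. Alternatives were other pseudocounts, filters, scalings, variance priors, a term for title range, and each kidney left out. The fits were tested on simulated data, in which limma recovered 99% of genes changed 2-fold and 100% of those changed 4-fold (200 of 13236 genes were changed), with 4.33% of its calls on unchanged genes. There, genes varied independently with a set spread, no kidney stood apart and only well-counted genes were changed. Differences under 2-fold, as in most members, were not simulated. These rates therefore check the code and do not give the power for the members here. Promoters and transcript lengths came from annotations of GRCm38, used only for sequence, names and length.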

Additional observations from a re-analysis of the deposited data

Results flagged for a closer look

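Single kidneys lay far from the other 4 of their genotype in 14 of 96 groups of 5 examined (44 members and 4 complex means in each genotype), by Dixon's gap over the range at its 95% critical value of 0.71. Chance alone would give about 4.8 in independent groups. These groups are not independent, since they share the same kidneys and the complex means are made from the members. A single kidney can therefore be flagged many times. Of the 14, 10 were S74N/+ replicate 1 and 4 were +/+ replicate 2.

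S74N/+ replicate 1 was low, in normalized counts, with 499.8 for Cox5b (the other 4: 1078 to 1289.7), 1344 for Cox6a1 (the other 4: 2044 to 2290.5), 939 for Atp5b (the other 4: 2133 to 2559), 626 for Atp5c1 (the other 4: 1280.2 to 1508), 254 for Atp5g3 (the other 4: 1201 to 1457), 1310.2 for Atp5h (the other 4: 1996 to 2126), 209 for Atp5md (the other 4: 567 to 639) and 933 for Atp5o (the other 4: 1587 to 1775). It was high in Cox6b2, at 86.7 against 38.99 to 52.3. Its mean log2 difference from the Rragc +/+ mean over the 17 members of complex V was -0.94, against -0.45 to -0.33 in the other 4. Over the 44 members its log2 ratios to its group correlated with those of the other 4 Rragc S74N/+ kidneys at a Spearman rho of -0.42 to -0.86, which share it as a reference, and in the Rragc +/+ kidneys, which do not, at 0.096 for replicate 1, -0.63 for replicate 2, -0.46 for replicate 3 and 0.57 and 0.61 for replicates 4 and 5. This is a description over genes of the same libraries, not a test.

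In Rragc +/+, replicate 2 was high, with 639.8 for Sdhc (the other 4: 394 to 449.7), 1778 for Cox6b1 (the other 4: 1226 to 1333), 680.4 for Cox7b (the other 4: 455 to 517) and 800.0 for Cox7c (the other 4: 273 to 368). Without it, 2 members were called lower in place of 12, while the median of the 44 was -0.41.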

How the results depend on the processing

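All alternatives kept 0 members called higher. The count of 12 called lower moved by over 1.5 times to 1 with no variance trend (150 genes lower in all, against 341), 24 with DESeq2 on the 8 recovered libraries (640 lower in all), and 2 to 19 with 1 kidney left out (125 to 424 in all). Leaving out both kidneys with brown fat genes, title ranges, limma on the 8 libraries and the GC and length trend were chosen after seeing the data. The count was 21 without both kidneys with brown fat genes, 0 within titles under 200 (34 lower in all) and 6 with the GC and length trend removed (232 in all), where the complex III median was -0.17. Equal library totals gave 8 member calls and 225 lower against 718 higher calls over all genes, where the reported fit gave 341 and 457; the list medians moved to -0.081 for assembly factors and -0.028 for electron carriers. With the GC and length trend removed the carriers' median was -0.043 and that of mitochondrially encoded complex I subunits -0.35, and within titles of 200 and over that of mitochondrially encoded subunits of complexes III to V was -0.28 and that of other mitochondrial genes -0.072. The regulators' median turned positive with edgeR (0.070) and DESeq2 (0.060). Small differences also changed sign. Cox6b2 was 0.026 with equal library totals, 0.20 with edgeR, 0.19 with DESeq2, 0.16 with limma on the same 8, 0.28 within titles under 200, 0.15 with GC and length removed, and -0.24 to 0.057 with 1 kidney left out. Cox7a2l was 0.028 with equal totals, 0.052 within titles under 200 and -0.094 to 0.031 with 1 left out. Cycs was 0.027 with equal totals, 0.14 within titles of 200 and over and -0.10 to 0.00064 with 1 left out. Sdha was 0.067 and Uqcrc2 0.18 within titles of 200 and over, and Uqcrc2 0.022 without the 2 kidneys with brown fat genes. The cause of these changes was not tested. Depth limits Sdhd, Cox6b2, Cox7a1, Cox7c-ps1 and Atp5g2, which had under 105 normalized counts in every kidney. No paired analysis was possible because the labels give no replicate numbers, which were set in accession order.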
